A study of Drosophila melanogaster with 48 samples.

Results

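Line 304 is 1 of 8 numbered lines of Drosophila melanogaster whose adult transcripts were measured on oligonucleotide arrays. It is represented by the 6 of 48 arrays whose titles carry its number, and it was set against the 42 arrays of lines 158, 362, 379, 380, 774, 786 and 859. In every line, 2 arrays came from flies whose larvae had eaten medium enriched with tomato paste, 2 from medium with 9% ethanol and 2 from standard cornmeal-molasses medium. All flies were moved to standard medium when they emerged, so the food differed only before adulthood. RNA was extracted from whole bodies. What the line numbers stand for and the sex of the flies are not stated. An age, 3 to 5 days, is recorded for the standard-medium arrays of lines 304 and 158, 4 arrays in all. Whether the 2 arrays of 1 line on 1 medium are separate cultures is not stated either, so the spread between them may be technical. In the contrasts of media, p-values rest on that spread. In the comparison of line 304 with the other lines, the error also includes the spread among those other lines. The question asked of line 304 was which transcripts were highest or lowest in it on all 3 media.

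Lines of one species carry different alleles of the same genes, and the level of a transcript is a trait that such alleles can change. Some large gene families of the fly act where the animal meets food, toxins and microbes. Cytochrome P450s, glutathione S-transferases and UDP-glycosyltransferases modify foreign and internal chemicals, serine proteases of the midgut digest food proteins, and antimicrobial peptides are secreted after infection. In a whole-body sample, fewer cells of a type and less RNA per cell cannot be told apart.

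The arrays of line 304 overlapped the others in general measures. Their median signal ran from 130.7 through a median of 147.1 to 157.6, against 85.9, 145.7 and 163.0 on the other arrays. The correlation of an array with its partner of the same combination ran from 0.95 to 0.99 in line 304 and from 0.78 to 0.99 in the other lines. The 3' minus 5' log2 difference of actin, a measure of RNA integrity, was 0.70 to 1.15 (median 0.93) in line 304, against 0.50 to 1.12 (median 0.79), so the highest array was one of line 304; its part in the results was not tested. Markers of both sexes were well measured in line 304, with a mean log2 signal of 13.84 to 14.51 for 3 yolk protein genes and of 11.19 to 11.99 for 6 male accessory gland genes, and the midgut, muscle and eye markers that passed the filter on low signal were high as well. The 2 tomato arrays of line 304 have titles written with hyphens and its other 4 have titles written with spaces, so title style and tomato medium cannot be told apart within the line.

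Line 304 differed from the other lines at 550 of 11261 probe sets (4.88%; limma with medium as a block, Benjamini-Hochberg adjusted p under 0.05), and more of them were lower than higher. There were 182 higher and 368 lower probe sets. In genes, 444 of 9419 tested were called (4.71%), 147 of them higher (1.56%) and 297 lower (3.15%). Called differences had a median size of 0.77 on the log2 scale, with medians of 0.79 for the rises and -0.75 for the falls. The largest differences all ran downward: 12 genes were lower by more than 4 log2 units and 0 were higher by as much. This skew was not particular to line 304: in probe sets, 12 were lower past 4 log2 units in line 304 and 4 to 11 in each other line, with 0 or 1 higher, and 6 of the 7 other lines also had more lower than higher calls. Every called probe set had the same sign on tomato, ethanol and standard medium.

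The error of this comparison treats arrays of a line as separate, although the 6 arrays of a line share its genotype. With each line reduced to 1 mean, so that line 304 was 1 value against 7, limma called 27 probe sets (0.24%), all of them among the 550. Counted by the probe set that represents each gene, its tested probe set of highest mean, they held 2 higher and 21 lower genes. The same comparison made for each other line called 460 to 883 probe sets in 6 lines and 3844 in line 380, so a count of 550 does not set line 304 apart from the other lines.

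**Figure D1:**
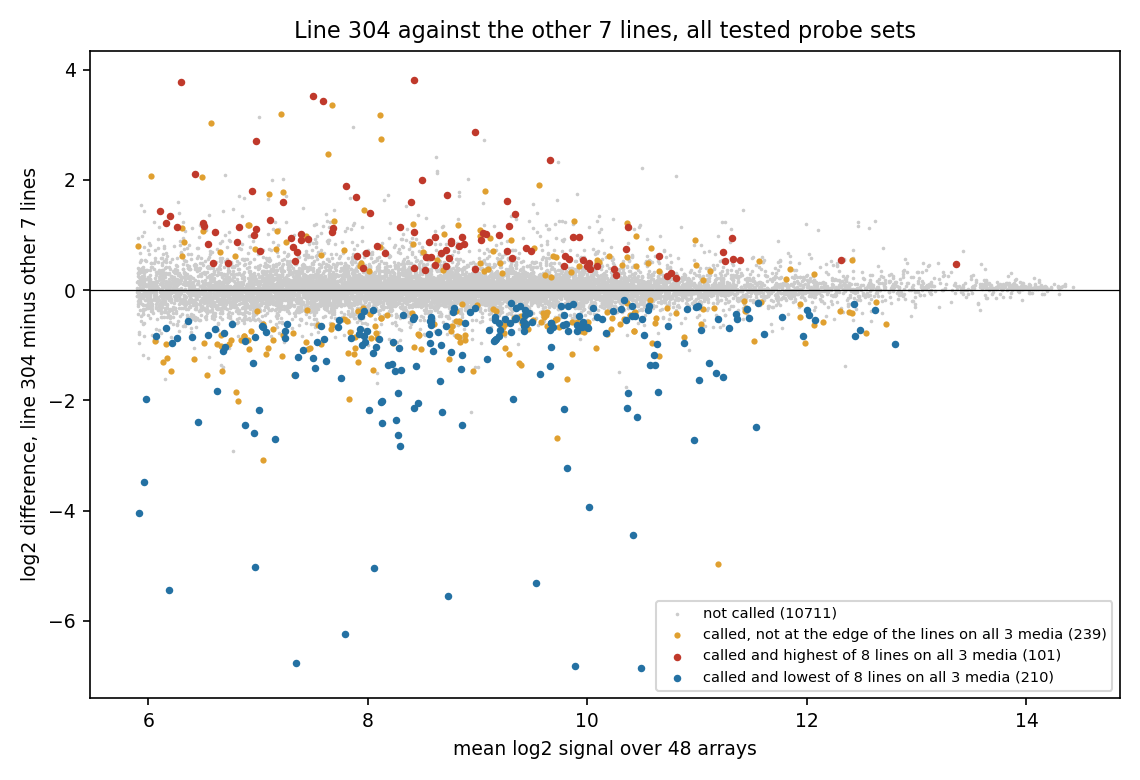
Each point is 1 of the 11261 tested probe sets, with its mean log2 signal over 48 arrays on the horizontal axis and the log2 difference of line 304 minus the other 7 lines on the vertical axis. Red and blue points were called and were also the highest or lowest of the 8 lines on all 3 media; the falls reach further from 0 than the rises.

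By the direct count that the question asks for, line 304 had the highest mean of the 8 lines on each of the 3 media at 133 probe sets and the lowest at 224. Counted the same way, each other line was highest at 100 to 429 probe sets and lowest at 107 to 328, so the counts of line 304 lie within the range of the others. These stand for 109 genes highest (1.16%) and 185 genes lowest (1.96%), of which 81 and 174 were also called. The strictest form of the pattern has no overlap between single arrays. All 6 arrays of line 304 lay above all 42 others for 17 genes (0.18%) and below all 42 for 39 genes (0.414%). In probe sets these counts were 23 above and 43 below. Each other line had 2 to 18 above and 21 to 44 below, so the count above was the largest of the 8 lines. Centring each array on its median moved the counts of 133 and 224 probe sets to 85 highest and 248 lowest.

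The deepest falls were 3 transcripts that were near the bottom of the array's range in line 304 and plainly measured in every other line. CG8343 had signals of 7.05 to 62.9 with a median of 23.3 in line 304, against 1449 to 4415 with a median of 2676 in the other lines. Its log2 difference was -6.87 ± 0.21 (SE; 6 against 42 arrays; adjusted p 1.06e-30). NaPi-III, which encodes a sodium-dependent phosphate transporter, had 2.37 to 33.8 (median 21.5) in line 304 and 1020 to 2585 (median 1727) in the others. The gap, -6.83 ± 0.24, was wider than the whole range within either group. The testis gene wa-cup had 1.29 to 4.29 (median 3.17) in line 304, against 105 to 554 (median 280). No array of another line came within reach of line 304 for any of the 3. Signals this low are close to background, since the lowest mean of any tested probe set was 59.7 and the deposited values carried no detection calls, so the size of these folds is uncertain, although all 6 arrays of line 304 lay below all 42 others.

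Pepck2, Trp1 and bif were named falls with known functions in metabolism, secretion and cell shape. Pepck2, a phosphoenolpyruvate carboxykinase of the gluconeogenesis pathway, had 2.60 to 10.1 (median 5.14) in line 304 and 82.2 to 1434 (median 329) in the other lines, a difference of -6.25 ± 0.48. Trp1, the fly counterpart of the Sec62 subunit through which proteins enter the endoplasmic reticulum, had 79.0 to 132 (median 91.1) against 833 to 2308 (median 1512). bif encodes bifocal, a protein bound to the actin cytoskeleton, and it had 111 to 139 (median 130) against 851 to 1857 (median 1173). The bif fall was smaller in fold, -3.23 ± 0.087, but had the smallest error of the 30 genes named as the largest rises and falls. Both Trp1 and bif stayed above 59.7 on every array of line 304, unlike Pepck2.

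Lime, a zinc-finger transcription factor that links immunity and metabolism, shows how a fall in line 304 can be partly shared. Its signals were 3.85 to 32.4 (median 12.6) in line 304, against 56.7 to 1689 (median 600). The next lowest line means were 76.1 in line 859 and 104.2 in line 786, and the highest was 1172 in line 380. Cyp6a17 followed the same form, with 29.4 in line 304, 190.5 in line 774 and 1187 to 1851 in the other 6 lines. The other named falls were CG12483, CG31730, CG32379, Nepl18 and CG7025, with differences from -5.45 to -2.63, and CG1304 and CG10477, which are described with the proteases. For 13 of the 15 named falls no array of another line reached the range of line 304.

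**Figure D2:**
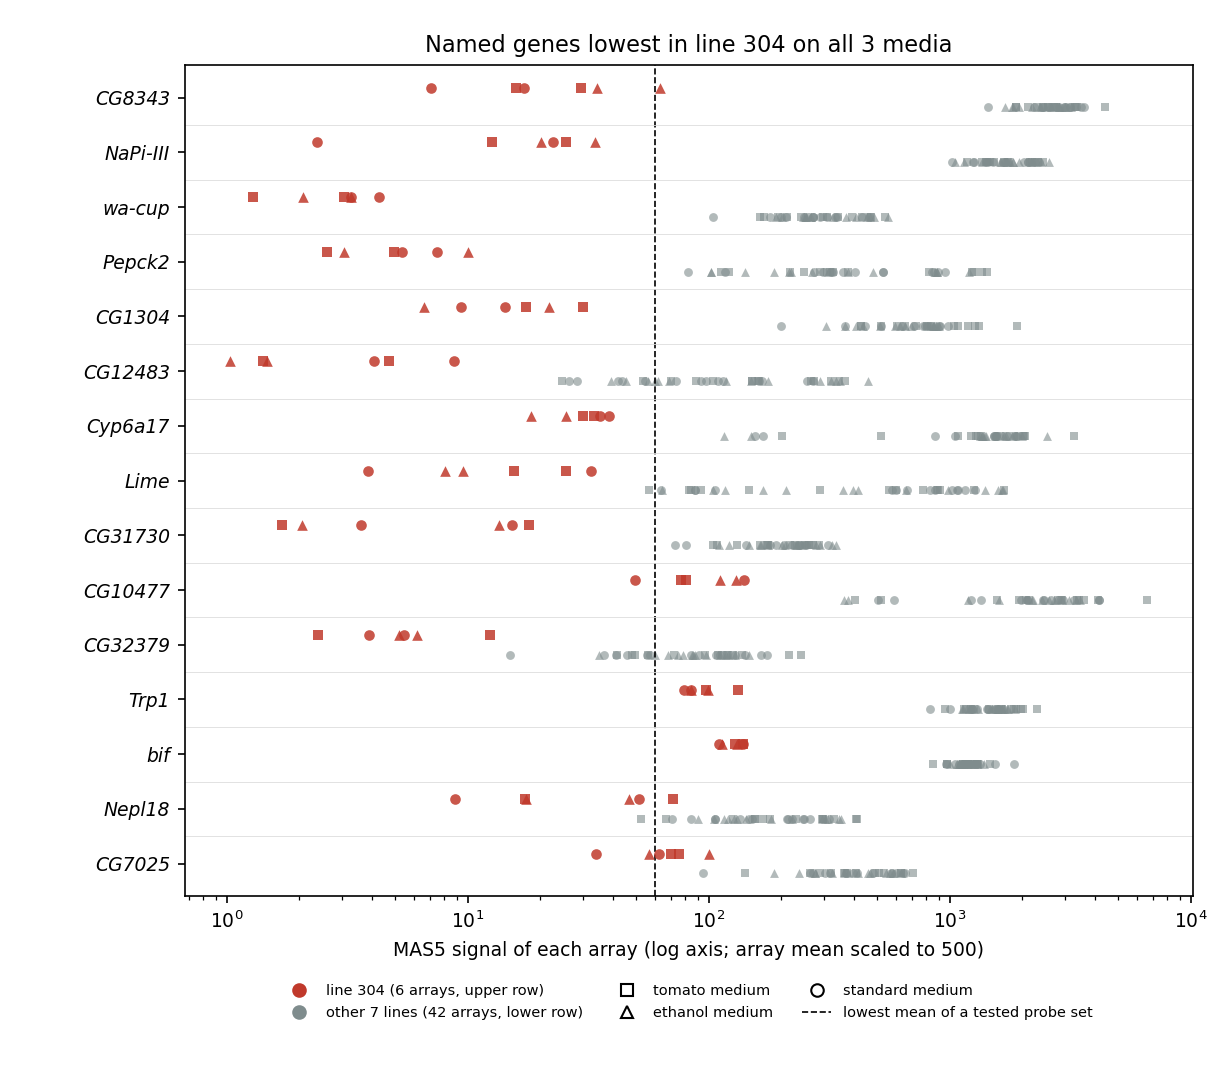
Each point is the MAS5 signal of 1 array, on a log axis, for the 15 genes with the deepest called falls that were lowest of the 8 lines on all 3 media. Red points in the upper row of each gene are the 6 arrays of line 304 and grey points in the lower row the 42 others; the 2 groups touch only for Nepl18 and CG7025.

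Of the 21 lower genes called on 8 line means, 8 are among the named falls: CG8343, NaPi-III, wa-cup, CG1304, CG12483, CG31730, Trp1 and bif. The rest had smaller folds with little spread among the other lines, and some were chosen here after their values were seen because their functions are known. fra, the netrin receptor frazzled that guides growing axons, had signals of 56.3 to 84.5 in line 304 and at least 272.7 on every other array. Ttd14, which helps move a light-activated channel in photoreceptors, had 131.5 to 253.7 against at least 543.9. clu, a protein that keeps mitochondria distributed in the cell, had 542.9 to 827.3 against at least 1347. Srp14, a subunit of the signal recognition particle, had 640.1 to 1027 against at least 1114. In each of these 4 genes the line 304 arrays lay below all 42 others.

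Rises in line 304 were fewer, and the largest of them were smaller than the largest falls. Counted by the probe set that represents each gene, otk2 and CG3165 were the rises that also passed on 8 line means. otk2 encodes a receptor-like protein related to off-track, and its signals were 1050 to 2402 (median 1391) in line 304, against 48.7 to 577 (median 140). The log2 difference was 3.44 ± 0.34, with an adjusted p of 0.0469 on 8 line means. CG3165 had 1463 to 1824 (median 1607) against 353 to 826 (median 536), a difference of 1.62 ± 0.13 with 0.0366 on 8 line means. All 6 arrays of line 304 lay above all 42 others for otk2 and CG3165. The same held for a probe set of CG9945, which is not the probe set that represents that gene. It had 563 to 840 in line 304, against 119 to 457, a difference of 1.70 ± 0.19, and limma on 8 line means gave an adjusted p of 0.0172.

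The largest rise was that of Prx6c, a peroxiredoxin that removes peroxides. It had 1818 to 5757 (median 4287) in line 304, against 27.8 to 2482 (median 190). Line 859 was also high, with a mean of 1756, while the other 6 lines lay between 55.5 and 473.0, and the gene did not pass on 8 line means. CG30083 had 621 to 1038 (median 768) in line 304 and 1.77 to 362 (median 82.0) in the others, a difference of 3.78 ± 0.83, and line 859 was the lowest at 3.50. CG31809 had 1228 to 1904 (median 1497), against 26.1 to 1072 (median 64.8), with means over 400 in lines 362, 774 and 859.

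The other named rises were CG13324, Jon66Cii, CG9616, CG9897, Nepl21, DCTN3-p24, CG42827, CG8066, scaf6 and CG16898, with differences from 2.88 to 1.38. DCTN3-p24 encodes a subunit of dynactin, the complex that couples cargo to dynein, and it had 753 to 1042 (median 890) in line 304, against 131 to 708 (median 280). scaf6 is the single named gene with more than 1 tested probe set, and its 4 probe sets disagree: 3 were higher in line 304, by 0.52 to 1.40, and 1 was lower, at -0.75 ± 0.19. Such disagreement was not limited to scaf6. Among all called genes, 24 had several tested probe sets. All probe sets had the same sign in 12 of them, and all were called with the same sign in 3. A gene call here therefore speaks for 1 probe set of the gene. CG9616 was the least secure named rise at 2.11 ± 0.63; leaving out any of the 6 arrays of line 304, or line 379, 774 or 859, ended its call, with adjusted p up to 0.108, as did line as a random block (0.229).

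For all 15 named falls no other line had a mean within 1 log2 unit of line 304, whereas this held for 7 of the 15 named rises. Both sets were picked from these same values by size and by lying at the edge of the lines. The falls were larger, at -6.87 to -2.63 against 3.81 to 1.38 for the rises. The contrast therefore follows at least in part from the choice of genes.

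**Figure D3:**
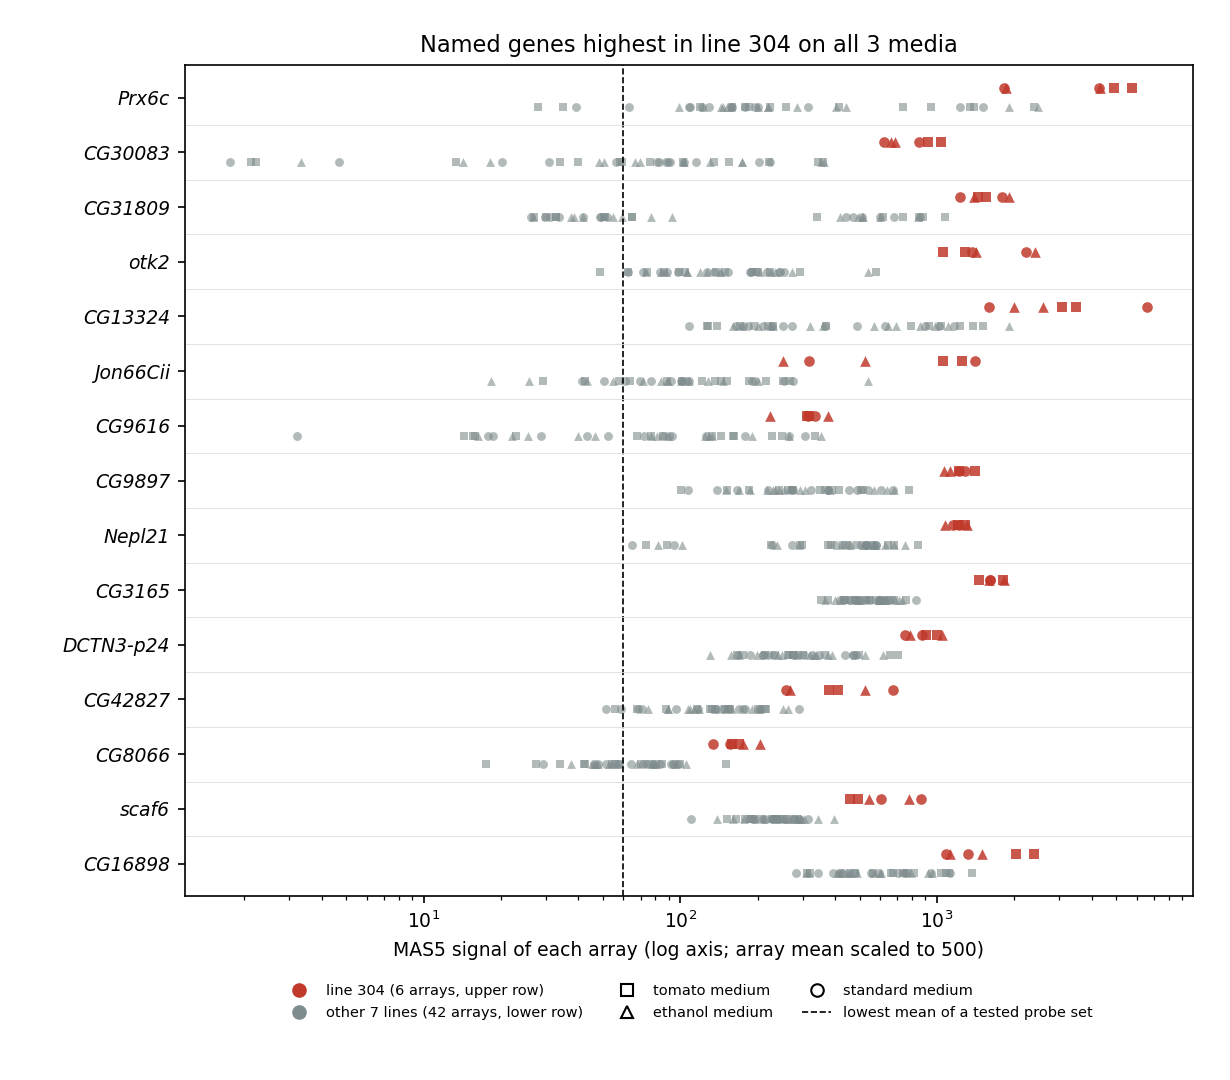
Each point is the MAS5 signal of 1 array, on a log axis, for the 15 genes with the largest called rises that were highest of the 8 lines on all 3 media. Red points in the upper row of each gene are line 304 and grey points in the lower row the other 7 lines; 8 genes, among them otk2 and CG3165, have no overlap between the groups.

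**Figure D4:**
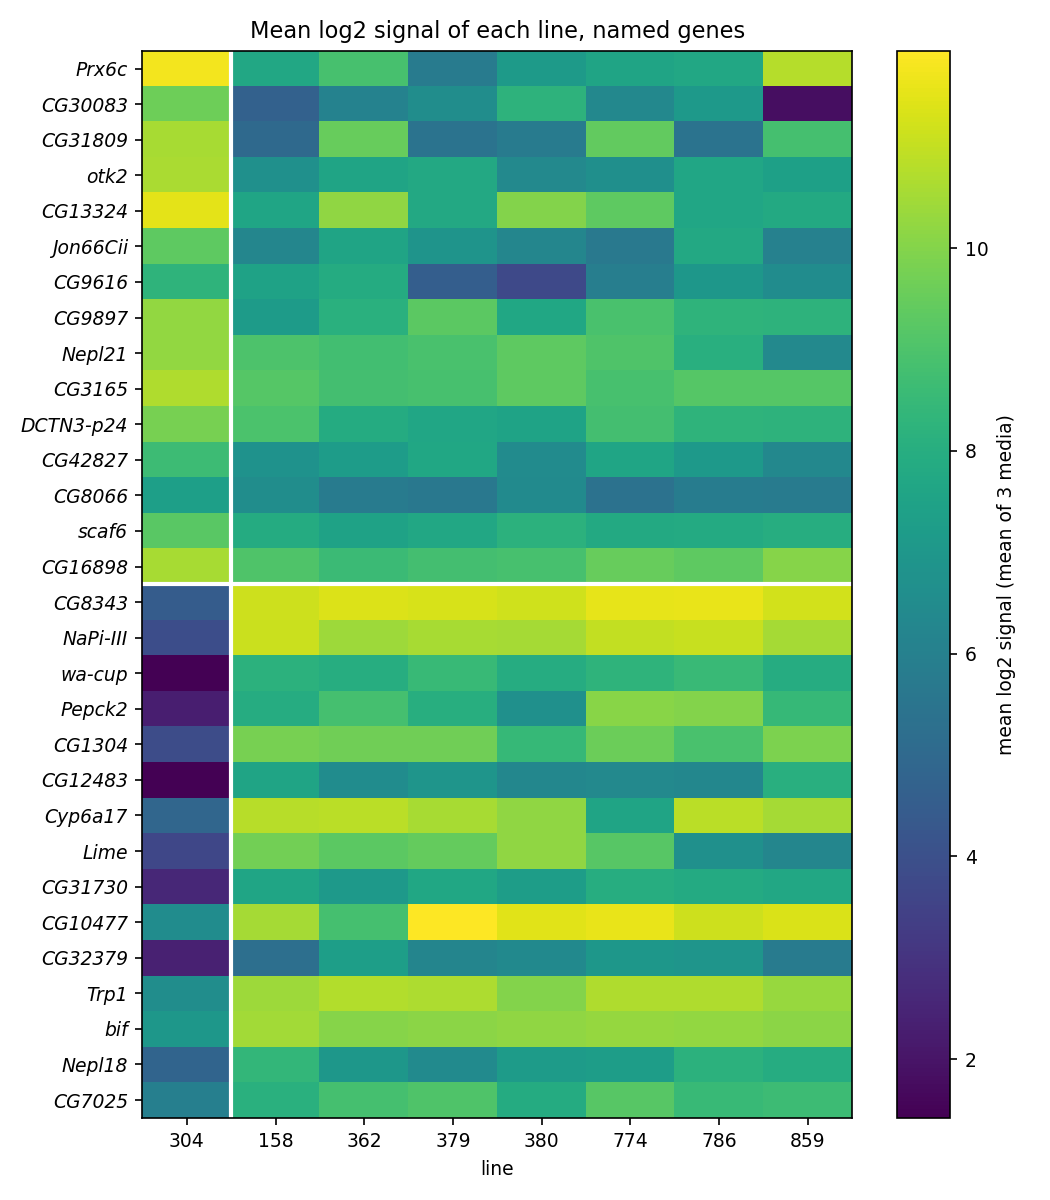
Colour gives the mean log2 signal of each line over the 3 media, with line 304 in the left column, for the 15 named rises above the white line and the 15 named falls under it. Several rises have a second line at a similar level, such as line 859 for Prx6c, and the falls of Cyp6a17 and Lime have second lines at intermediate levels.

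Cytochrome P450 genes changed in both directions, most of them in the Cyp6a group. Of 67 tested, 3 were higher and 5 lower in line 304, or 11.9%, against 4.71% of all tested genes, and the median difference of the family was 0.01, against 0.02 over all tested genes; its sign changed under quantile normalisation and median centring. Cyp6a17, a P450 known for its part in the temperature preference of flies, had 18.4 to 38.5 (median 31.7) in line 304, against 116 to 3272 (median 1538), a difference of -5.32 ± 0.47. Cyp6a23 is its neighbour among tested genes and went the other way, with 1495 to 3422 (median 2332) against 228 to 2590 (median 590) and a difference of 1.90 ± 0.35.

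The line with the next lowest Cyp6a17, line 774, was also the line with the next highest Cyp6a23, at 2066 against 2395 in line 304, while the other 6 lines lay between 347.4 and 746.4. Cyp6a9 had 61.6 to 127 (median 92.8) in line 304, against 78.7 to 1876 (median 453), and line 362 was nearly as low at 119.9. Cyp9h1 was higher by 0.95 ± 0.25, a call that was lost without tomato array 4 (adjusted p 0.0532). The 4 further P450 calls, which the rule for named genes does not reach, were Cyp6a8 at 1.80, and Cyp4e1, Cyp4p1 and Cyp6a14 at -0.93, -1.60 and -2.01. With line as a random block the calls of Cyp9h1 and of these 4 genes were lost (adjusted p 0.159 to 0.322), while Cyp6a17, Cyp6a23 and Cyp6a9 kept theirs.

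Glutathione S-transferases and UDP-glycosyltransferases each had 3 falls and 1 rise, which is 13.3% and 17.4% of those tested, against 4.71% of all genes. Among 30 tested transferases of glutathione, GstO3 had 264 to 541 (median 347) in line 304, against 532 to 4628 (median 1688), a fall of -2.14 ± 0.27. GstE3 fell by 1.33 on the log2 scale and GstT4 by 0.52, and GstD10 rose by 1.07. The GstT4 call was lost without standard array 1, tomato array 3 or ethanol array 2 (adjusted p up to 0.0800), and the GstD10 call without standard array 1 or tomato array 4 (up to 0.112). Both were also lost with line as a random block (0.511 and 0.469). Although 23 of the 30 members had higher means in line 304, the members with the deepest changes were lower.

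Among 23 UDP-glycosyltransferases, which attach sugars to small molecules, Ugt37B1 had 8.60 to 52.3 (median 30.1) in line 304, against 79.4 to 319 (median 140), without overlap. Ugt35C1 had 79.8 to 287 (median 173) against 130 to 6235 (median 1069), and line 786 was nearly as low at 204.8. Ugt305A1 differed by -0.83 ± 0.15, a call lost with line as a random block (adjusted p 0.134). Ugt302C1 differed by 0.44 ± 0.081 and was the highest of the 8 lines on all 3 media.

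Several serine proteases of the digestive tract had very different levels between lines, line 304 included. Of 32 tested digestive proteases, 2 were higher and 2 lower, or 12.5%, against 4.71% of all tested genes, and the list median was 0.17. The calls of this list were Jon66Ci, Jon66Cii, Ser6 and Jon74E. CG1304 and CG10477 are described beside them but are not in the list, so the share does not cover them. Ser6 had 180 to 295 (median 240) in line 304, against 584 to 2385 (median 1025), a difference of -2.15 ± 0.18 with no overlap. Its neighbour CG1304, another trypsin-like protease, had 6.60 to 30.2 (median 15.9) against 200 to 1913 (median 749), a difference of -5.55 ± 0.26. Both members of this neighbouring pair were also called on 8 line means.

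Jon74E, a protease of the Jonah family, had 75.5 to 143 (median 121) in line 304, against 107 to 19167 (median 13151). Lines 786 and 362 were as low, at 113.8 and 132.4, and the other 5 lines had 11929 to 15588, so line 304 shares this low state. CG10477, a further protease, had 49.5 to 140 (median 96.3) against 365 to 6613 (median 2443), with line 362 next at 453.4.

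The neighbouring Jonah genes Jon66Ci and Jon66Cii rose together. Jon66Cii had 251 to 1405 (median 791) in line 304, against 18.3 to 536 (median 101), a difference of 2.71 ± 0.43. Jon66Ci had 635 to 3612 (median 1771) against 6.49 to 1791 (median 95.1), a difference of 3.36 ± 0.88, and its call was lost without tomato array 3 or tomato array 4 (adjusted p up to 0.0556) and with line as a random block (0.144). The abundant Jonah proteases Jon65Aiii and Jon65Aiv differed by 0.02 each, at means of 17791 and 18291 in line 304.

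A run of 3 neighbouring called genes holds Peritrophin-15a and Peritrophin-15b, proteins of the peritrophic matrix, the chitin lining that shields the midgut, and all 3 were lower. Peritrophin-15a had 470 to 840 (median 688) in line 304, against 605 to 8636 (median 4011), a difference of -2.49 ± 0.29. Peritrophin-15b had 50.5 to 99.8 (median 53.9) against 50.6 to 1225 (median 391), a difference of -2.42 ± 0.40. The adjoining CG13385 differed by -1.22 ± 0.22, a call lost with line as a random block (adjusted p 0.0510). Line 304 was the lowest of the 8 lines on all 3 media for each of the 3, although single arrays of other lines reached its range. A midgut index over 3 marker genes was 12.77 to 13.32 in line 304, against 10.92 to 13.35 elsewhere. Of the 3, 2 had higher means in line 304, Jon25Bi differed by -0.31, and 0 were called. The markers themselves vary between lines: Jon99Ci had a mean of 6287 in line 304 and 66.8 in line 786. Whether gut cells changed with the peritrophins was not tested.

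Among 19 antimicrobial peptide genes, 3 were called, all higher in line 304, a share of 15.8%. Of all tested genes, 4.71% were called in either direction and 1.56% were called higher. The other 16 did not pass; 17 of the 19 had higher means and the median difference was 0.64, against 0.02 over all tested genes. DptB, which encodes diptericin B, had 431 to 5391 (median 1695) in line 304, against 6.83 to 2458 (median 250), a difference of 2.75 ± 0.79. Within line 304 it was uneven: tomato arrays had 2742 and 5391, ethanol arrays 859 and 2530, and standard arrays 761 and 431. CecB, a cecropin, and Drsl5, of the drosomycin family, were higher by 0.83 ± 0.20 and 0.90 ± 0.25.

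These calls rest on few arrays, and with line as a random block CecB, Drsl5 and DptB lost theirs (adjusted p 0.493, 0.285 and 0.836). The fat body, the main source of these peptides, had 1 tested marker, whose level in line 304 (median log2 signal 11.38, against 9.02) is given in full with the lipid genes; its part was not tested. The DptB call was lost without tomato array 3, tomato array 4, ethanol array 1, ethanol array 2 or line 786 (adjusted p up to 0.134). The CecB call was lost without tomato array 4 (0.0847), and the Drsl5 call without standard array 2, tomato array 3, tomato array 4 or ethanol array 2 (up to 0.0625). PGRP-LB, an amidase that degrades bacterial peptidoglycan, was higher by 0.87 and PGRP-LF, an inhibitor of peptidoglycan signalling, by 0.78 among 6 tested recognition proteins. These calls are 33.3% of that list, against 4.71% of all tested genes. PGRP-LB and PGRP-LF lost their calls without standard array 1, tomato array 3, tomato array 4 or ethanol array 1 (up to 0.119 and 0.143), and PGRP-LB also without line 859 (0.0628); with line as a random block both were lost (0.712 and 0.675).

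LysX was the 1 call among 3 lysozymes tested (33.3%, against 4.71% of all tested genes). It had 167 to 615 (median 341) in line 304, against 4.14 to 321 (median 70.4). The LysX call was lost without standard array 1, tomato array 3 or tomato array 4 (adjusted p up to 0.0590), and with line as a random block (0.293). NimB5, a secreted nimrod protein that restrains blood cell number, was firmer, with 373 to 440 (median 408) against 103 to 433 (median 179) and a difference of 1.13 ± 0.21. It was the 1 call among 15 tested blood cell genes (6.67%, against 4.71% of all tested genes). NimB5 kept its call under each removal of 1 array of line 304 or of 1 other line. TotC, the 1 Turandot stress gene tested, differed by 2.16 ± 0.78 and was not called (adjusted p 0.116), but passed without line 362 (0.00038). The 4 metallothioneins, which bind copper and zinc, had a median difference of 1.08 with 0 called by limma and 2 at an unadjusted p under 0.05; MtnD came closest at 1.74 ± 0.57 (0.0666), and it passed without line 362, 379 or 786 (0.0342 to 0.0467).

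Of 43 testis genes tested, 2 were lower and 0 higher in line 304, a share of 4.65%, against 4.71% of all tested genes. Lower means were found for 33 of the 43, and the median difference was -0.08. Besides wa-cup, the call was Mst87F, a protein of the sperm tail, with 594 to 1088 (median 1034) in line 304 and 648 to 5248 (median 3056) in the others, a difference of -1.57 ± 0.29. An index over 6 testis markers was 10.88 to 11.32 in line 304, against 10.10 to 12.04 with a median of 11.50, and all 6 markers had lower means. Mst87F is itself 1 of these 6 markers, so the index is no separate measure beside it. The part of testis content in the Mst87F result was not tested. At -6.77 ± 0.24, wa-cup lay far below Mst87F, the next lowest of the 43.

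Of 36 accessory gland and seminal fluid genes, 2 were higher and 5 lower, or 19.4%, against 4.71% of all tested genes, and the median difference was -0.11. lectin-46Ca, a seminal fluid lectin needed for the long response of mated females, had 137 to 223 (median 155) in line 304, against 122 to 684 (median 332). antr, another gene of that seminal fluid network, and Acp32CD were lower, at -0.65 ± 0.17 and -0.64 ± 0.17, and intr was higher by 0.63 ± 0.18. The antr call was lost without tomato array 3 or ethanol array 2 (adjusted p up to 0.0748), the Acp32CD call without standard array 1, tomato array 3 or ethanol array 2 (up to 0.0715), and the intr call without tomato array 3, tomato array 4, ethanol array 1 or line 786 (up to 0.113). These 4 calls were lost with line as a random block (0.300 to 0.575). The seminal fluid protein genes Sfp53D and Sfp38D are not in the list, so the share does not cover them. They were also called lower, at -1.31 ± 0.22 and -0.92 ± 0.18. With line as a random block the Sfp53D call was kept (adjusted p 0.00424) and the Sfp38D call was lost (0.128). The index over 6 accessory gland markers overlapped fully between line 304 and the rest.

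Eggshell genes, made by ovarian follicle cells, had higher means in line 304 for 16 of 17 members, with 0 called by limma, 0 at an unadjusted p under 0.05 and a median difference of 1.11. The eggshell index was 11.40 to 13.80 (median 13.34) in line 304, against 4.50 to 13.88 (median 12.75). The wide range elsewhere came from arrays with very low eggshell signal. Without the 9 lowest of them the list median was 0.06, and 684 of all 9419 genes were called (7.26%). Those 9 arrays, all of other lines, were picked by this index, which is built from members of the list. The smaller median therefore follows from the choice of arrays and is no test of the higher means. The 2 tomato arrays of line 304, at 11.40 and 11.92, were also lower than its 4 other arrays, at 13.23 to 13.80. The 3 yolk protein genes differed by 0.12 to 0.22, with 0 called. In the germ line list of 24 genes 1 was called (4.17%, against 4.71% of all tested genes). It was grk, the gurken ligand that patterns the oocyte, at -0.40 ± 0.086, with 343 to 435 (median 380) against 378 to 697 (median 494). The grk call was lost with line as a random block (adjusted p 0.310).

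**Figure D5:**
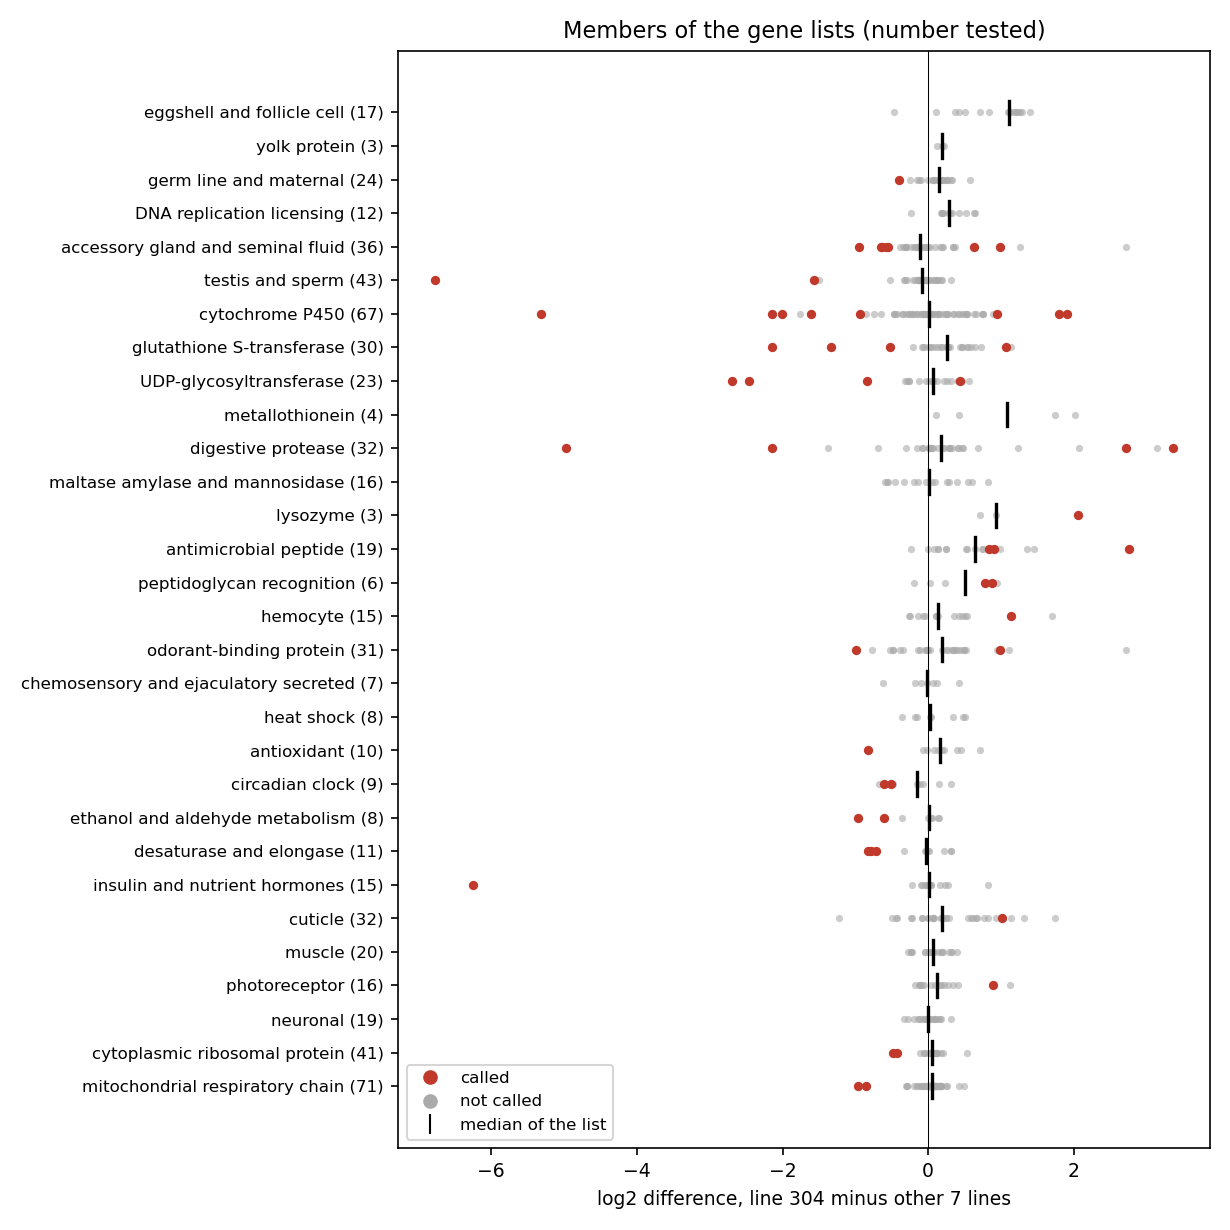
Each point is the log2 difference of line 304 minus the other 7 lines for 1 tested gene of a list, with called genes in red and the list median as a black bar. Most lists are centred near 0 with a few members far out, such as Cyp6a17 at -5.32 and Jon66Ci at 3.36, while eggshell and metallothionein medians lie near 1 with 0 called.

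Of 11 desaturase, elongase and lipid genes 3 were called, all lower, or 27.3%, and the list median was -0.02. Of all tested genes, 4.71% were called in either direction and 3.15% were called lower. Fad2, the desaturase that makes female cuticular dienes, had 2866 to 3870 (median 3318) in line 304, against 3261 to 8364 (median 6138), a difference of -0.83 ± 0.14. eloF, the elongase of the same female hydrocarbon pathway, differed by -0.72 ± 0.18, and Lsd-2, a perilipin on lipid droplets, by -0.78 ± 0.17. The fatty acid synthases FASN3 and FASN2 differed by -0.97 ± 0.19 and -0.61 ± 0.19. The FASN2 call was lost without any of 5 arrays of line 304, all but ethanol array 1, or without line 362, 379, 786 or 859 (adjusted p up to 0.162). With line as a random block and an estimated correlation, all 5 of these calls were lost, at adjusted p from 0.0905 for Fad2 to 0.847 for FASN2. The fat body, where many lipid genes act, was represented by 1 tested marker of 3, whose log2 signal was 9.37 to 12.60 (median 11.38) in line 304, against 6.23 to 13.27 (median 9.02); its part in these results was not tested.

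Sod2, the mitochondrial superoxide dismutase, had 1980 to 2830 (median 2466) in line 304, against 2987 to 6244 (median 4337), with no overlap and a difference of -0.82 ± 0.11. It was the 1 call among 10 antioxidant genes (10%, against 4.71% of all tested genes). The peroxiredoxin gene Prx6c, described with the rises, was called higher but is not in this list, so the share does not cover it. Of 71 respiratory chain genes, 2 were called (2.82%, against 4.71% of all tested genes), and 53 had higher means, with a list median of 0.05. The calls were ATPsynGL and COX6AL2, at -0.96 and -0.85, both variant copies of common subunits. Of 41 ribosomal protein genes 2 were called (4.88%, against 4.71% of all tested genes). They were RpL24-like and RpL7-like, at -0.48 and -0.43, whose yeast counterparts assemble ribosomes rather than form part of them. With line as a random block these 4 calls were lost (adjusted p 0.103 to 0.318), and that of Sod2 was kept.

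Among 9 clock genes 2 were called (22.2%, against 4.71% of all tested genes). Of these, jet, an F-box protein of light resetting, differed by -0.61 ± 0.12, and cwo, a repressor of clock genes, by -0.51 ± 0.15. The cwo call was lost without any 1 array of line 304 or without line 158 or 786 (adjusted p up to 0.114). Both jet and cwo lost their calls with line as a random block (0.115 and 0.321). In the 31 tested odorant-binding proteins Obp56e was higher, at 0.99, and Obp8a lower, at -0.98, a share of 6.45% against 4.71%. Obp56e lost its call without standard array 1, tomato array 3, tomato array 4, ethanol array 1 or line 859 (up to 0.106), and Obp8a without any array but ethanol array 2 or without line 362, 774, 786 or 859 (up to 0.144). rdgB, a lipid transfer protein of photoreceptors, was higher by 0.89 ± 0.21, and Cpr66D, a cuticle protein, by 1.01 ± 0.28. Each was the 1 call of its list, of 16 photoreceptor genes (6.25%) and 32 cuticle genes (3.1%), against 4.71%. The Cpr66D call was lost without standard array 1, tomato array 3, ethanol array 1, ethanol array 2 or line 774 (up to 0.148). The calls of Obp56e, Obp8a, rdgB and Cpr66D were lost with line as a random block (0.363 to 0.569).

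Several lists held 0 calls by limma in line 304. The 8 heat shock genes, 20 muscle genes and 12 replication licensing genes also had 0 at an unadjusted p under 0.05, while the 16 maltases, amylases and mannosidases had 1, the 19 neuronal genes 1 and the 7 secreted chemosensory genes 2. Their median differences ran from -0.01 to 0.29. Within the 15 insulin and nutrient hormone genes the call was Pepck2 (6.67%, against 4.71% of all tested genes). The odorant and gustatory receptors could not be described, since 1 of 166 on the array, Orco, passed the filter, at -0.22 ± 0.22.

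Some changed genes lay next to each other in the order of the RefSeq gene table. Among the 9390 tested genes placed there, 443 were called. Of 9382 pairs of neighbours, 34 were both called, and 4 runs of at least 3 called genes were found. With 4.71% of all tested genes called, some neighbours are both called by chance, and whether called genes lay together more often than that was not tested. In 3 runs every member was lower in line 304: the peritrophin run, the run of antr, CG30486 and CG17574 at -0.65, -1.97 and -0.32, and the run of pen-2, sbb, CG14502 and CG18536 at -1.42, -0.88, -1.06 and -0.90. pen-2 encodes a subunit of gamma-secretase and sbb the nuclear protein scribbler, and sbb had no overlap, with 273 to 404 in line 304 against 420 to 909. In the remaining run, of neprilysin-like metalloproteases, Nepl18 was lower at -2.70 while Nepl19 and Nepl21 were higher at 1.06 and 1.73. Signals of Nepl19 were 170 to 216 in line 304, against 32.3 to 158, again with no overlap. With line as a random block, the calls of Peritrophin-15a, Peritrophin-15b, pen-2, sbb, Nepl18 and Nepl21 were kept and those of the other 7 genes of these runs were lost, at adjusted p from 0.0510 to 0.526.

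Few transcripts of adult line 304 were called between larval foods. On tomato against standard medium, limma called 0 of 11261 probe sets (0%), with 512 at an unadjusted p under 0.05 and a smallest adjusted p of 0.529. On tomato against ethanol medium it called 0 (0%), with 429 unadjusted and a smallest adjusted p of 0.888. Tomato and hyphen titles coincide in these arrays, so neither count separates them. These are 2 arrays against 2, with the spread taken from all 24 combinations. By chance about 563 probe sets would have an unadjusted p under 0.05, and the counts of 512 and 429 lie under that. The small number of calls is therefore no measure of how little larval food changed line 304.

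On ethanol against standard medium, 2 probe sets were called (0.0178%), both higher and both at low signal. Only 80 had an unadjusted p under 0.05, against about 563 by chance. CG32712 had 91.2 and 58.8 on ethanol medium, against 11.5 and 21.2 on standard medium, a difference of 2.23 ± 0.29 (adjusted p 0.000220). Line 304 was thus low for CG32712 on standard medium and within the range of the other lines on ethanol medium, where those lines had 53.2 to 102; on tomato medium it had 40.3 and 30.5, against 57.6 to 130. The difference of line 304 from the other lines varied with the medium for this 1 probe set (0.00888%; adjusted p 0.00112). Leaving out ethanol array 1 ended both calls (0.0718 and 0.0824).

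CG8343, the gene with the deepest fall, had 62.9 and 34.4 on ethanol medium, against 7.05 and 17.2 on standard medium, a difference of 2.08 ± 0.35 (adjusted p 0.0142). The call was lost without standard array 1 or ethanol array 1 (up to 1.00) and with 16 added to every signal (0.857). Its variation with medium against the other lines had an adjusted p of 0.0503, and it passed under quantile normalisation (0.0363), median centring (0.0211), array number as a block (0.0410), the fit with an interaction (0.0171) and 4 of the 6 removals of 1 array (0.00233 to 0.0347). On every medium the gene stayed more than 5 log2 units lower in line 304, at -6.95 on tomato, -5.69 on ethanol and -7.96 on standard medium.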

How the data were processed

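Each array's deposited intensity values are linear signals. The authors computed them in MAS5 (version not given), per the submitters' processing notes. In every array the mean after trimming 2% at each end was 500.009 to 500.016, so the authors scaled each array to 500. Detection calls and scan dates were not used here, and the number of arrays limits the precision. No pair of arrays held identical values.

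Signals under 1 were raised to 1 before log2 was taken of the deposited values. Controls were left out and the 60% of probe sets with the highest mean kept, which left 11261 (mean signal above 59.7; 4 values at the floor). Among 18769 non-control probe sets, the platform table gives 1 symbol for 13647, several for 402 and none for 4720; 13544 matched the RefSeq gene table, used for names and gene order only. A gene is represented by its tested probe set of highest mean, giving 9419 genes. limma 3.58.1 in R 4.3.3 (lmFit, eBayes with an intensity trend, Benjamini-Hochberg) compared line 304 with the other 42 arrays, medium as a block; contrasts of media used a fit with 24 group means. The code was tested on simulated data.

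The text names 15 rises and 15 falls, those of largest size among called genes that were highest or lowest of 8 lines on all 3 media, up to 4 called members of each gene list by smallest p (or up to 2 members where none was called), the first genes of each contrast of media, and runs of at least 3 neighbouring called genes; genes outside these rules were chosen after their values were seen. Members and lists were chosen with earlier results of these data known. Alternatives covered normalisation, filter, floor, blocks, the unit of replication, single media, and removal of each array or line; the closing section gives their effect.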

Additional observations from a re-analysis of the deposited data

Results flagged for a closer look

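In line 304, 39 values were tested for an array far from the other 5 with Dixon's criterion at 95%, and 2 passed it; chance alone passes about 1 in 20. CG9616 had 224 on ethanol array 2, and the next lowest array had 311. NaPi-III had 2.37 on standard array 2, and the next lowest had 12.6, both far below every array of the other lines.

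CG32712 differed between line 304 and the other lines by an amount that varied with larval medium (limma F-test, adjusted p 0.00112). Its difference from the other lines was -1.17 on tomato medium, -0.07 on ethanol medium and -2.45 on standard medium.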

How the results depend on the processing

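Of 73 called genes followed through the alternatives, 54 kept their call without any single array of line 304 or any single other line, and all 73 kept it under median centring, 16 added to the signal, title style as a block and the error within combinations. All but FASN2 also kept it under quantile normalisation, without the filter and with array number as a block. On 24 combination means 43 kept it, with line as a random block 41, and on 8 line means 11. The count of 550 probe sets became 362 in the upper 40% by signal (7508 tested), 191 on 24 means, 27 on 8 line means, 134 with line as a random block, 1432 with the error within combinations, 286 on space-titled arrays, 38 on tomato arrays with hyphens, 841 when 9 arrays with the least eggshell signal were dropped, 35 within tomato, 58 within ethanol and 73 within standard medium, and 247 without both tomato arrays of line 304, a choice made after seeing the data. Without 1 array of line 304 it was 377 to 418, and without 1 line 512 to 619. The highest count of 133 became 85 under centring and 84 in the upper 40% (118 to 156 without 1 array), and the lowest count of 224 was 207 to 236 without 1 array; these were also added after seeing the data. For the variation with medium the count of 1 became 2 under quantile normalisation, centring and the fit with an interaction, 0 in the upper 40%, and 0 to 4 without 1 array. Tomato against standard medium had 1 call under centring, which moved the median of all probe sets from 0.01 to -0.16, and 0 to 8 without 1 array, with 8 when standard array 1 was left out. Ethanol against standard medium had 1 call in the upper 40%, 1 with 16 added and 0 to 5 without 1 array; NaPi-III passed there without standard array 1 (log2 difference 3.46). The cause of these movements was not tested beyond the smaller number of arrays, lines or probe sets that the alternatives themselves use. Array numbers did not pair the samples: of 105 pairs of combinations numbered 1 and 2, deviations correlated above 0.1 in 29 and under -0.1 in 28, though standard and ethanol arrays of line 304 had r = 0.63. With array number as a replicate block 528 probe sets were called for line 304, 2 for the variation with medium and 2 for ethanol against standard medium, with 0 for the other contrasts of media. Signals near background limit the size of the deepest folds.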
